A study of Mus musculus with 24 samples.

Results

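The comparison described here asks which genes answered differentiation differently in primary myoblasts (PMs) and in C2C12 cells. It rests on 8 of the 24 RNA-seq libraries of the series, 2 for each cell type at day 0 and 2 for each at day 3, all transfected with siControl, which targets luciferase, and it covers all 28109 genes of the count table. Per the labels, the PMs came from C57/B6 mice and the C2C12 line, an established mouse myoblast line, from the C3H strain. Per the study's methods, the PMs were isolated from the muscle of young wild type mice and grown on matrigel in another basal medium than the C2C12 cells. Day 0 was 24 hours after transfection, and the medium was then changed to 2% horse serum for differentiation. Strain, age in culture, medium and matrix all follow the cell type, so that their contributions cannot be told apart. The labels call the 2 libraries of a group biological replicates without saying whether they came from separate animals or cultures, and p-values measure only the spread between such libraries. Total counts of the 8 libraries ran from 32571583 to 52784510.

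For each gene, the response of a cell type is the log2 fold change from day 0 to day 3, and the difference of responses is the response of the PMs minus that of the C2C12 cells. A positive difference (higher in PMs) can come from a stronger rise in PMs or from a stronger fall in C2C12 cells, and by arithmetic it also equals the gap between PMs and C2C12 cells at day 3 minus the gap at day 0. Genes were tested with the quasi-likelihood test of edgeR across all 24 libraries, and a gene was called where its p, adjusted by Benjamini and Hochberg, was under 0.05 and its log2 difference exceeded 1 in size. Of the 28109 genes, 16926 had enough counts to be tested. Levels are given as CPM, read counts scaled to the effective library size of each library, for replicate 1 and then replicate 2. Counts of gene lists are by edgeR, and the other settings named beside them, where one moved a count by over 1.5 times, were DESeq2, limma voom, no filter on low counts, a minimum of 10 counts in every library, other scalings, a replicate block, a test against a log2 of 1 (the log2 test), and fits to the 8 libraries compared or the 12 of siControl alone.

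Skeletal myoblasts are proliferating precursors that express Myod1 and Myf5. After serum withdrawal they leave the cell cycle, switch on Myog and Mef2 factors, fuse through the membrane proteins Myomaker and Myomixer, and build sarcomeres with their calcium release system. Notch signalling keeps myoblasts undifferentiated, and Igf2 drives differentiation in an autocrine manner.

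Both cell types carried the markers of their label. Myod1 stood at 136 and 127 CPM in C2C12 cells and at 1006 and 1012 CPM in PMs at day 0, and Des at 865 and 775 CPM and 1552 and 1460 CPM. The 10 endothelial markers tested together reached 2.34 and 1.88 CPM in C2C12 cells at day 0 but 14.6 and 5.27 CPM in PMs, with Cdh5 the most abundant and Cldn5, Robo4 and Emcn at 0 in C2C12 cells at day 0. The 8 Schwann cell markers were led by Erbb3, which myoblasts also express, while Sox10, a defining marker, stood at 3.03 and 0.0505 CPM in the PMs of day 3 and at 0 in both C2C12 libraries of that day. The 6 macrophage markers summed to under 10 CPM in each of the 8 libraries, with Cd14 the most abundant. The difference of responses described below was called higher for 1 and lower for 7 of the 10 myoblast markers. It was called higher for 2 and lower for 3 of the 8 smooth muscle and pericyte markers, led by Acta2. Of all genes tested, 3.79% were called higher and 7.44% lower. The 7 lower myoblast markers became 4 without replicate 1 of the PMs at day 3 or replicate 2 of the C2C12 cells at day 0. The 2 higher smooth muscle markers became 0 without replicate 1 of the PMs at day 3, replicate 2 of the PMs at day 0 or replicate 1 of the C2C12 cells at day 3, and 1 without any of the other libraries. Over the other settings 2 (log2 test) to 8 (no filter) myoblast markers were lower, 0 (log2 test) to 2 smooth muscle markers higher and 1 (minimum of 10 counts) to 3 lower, and no myoblast marker was higher with that minimum. The 2 adipocyte markers tested were led by Pparg, with 0 called higher and 0 lower. The part of such cells in the results was not tested, and in bulk RNA fewer cells of a type and less RNA per cell cannot be told apart.

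The replicates of the siTead1/4 C2C12 cells, used further below, stood farthest apart among the groups of days 0 and 3. The SD over genes of the log2 ratio of replicate 2 to replicate 1 was taken with 1 CPM added to each value. It was 0.504 at day 3 and 0.499 at day 0 in those cells, and 0.265 and 0.215 in siTead1/4 PMs. In siControl cells the SD was 0.290 in PMs at day 3, 0.212 in PMs at day 0, 0.274 in C2C12 cells at day 0 and 0.247 in C2C12 cells at day 3. The chi-square of the counts per gene, which also grows with read depth, was 24.2 in PMs at day 3 and 12.3 at day 0. It was 41.6 in C2C12 cells at day 0 and 38.3 at day 3. In siTead1/4 cells it was 209.6 at day 3 and 104 at day 0 in C2C12 cells, and 32.1 and 20.1 in PMs. In replicate 2 of the PMs at day 3, 34 of 49 interferon and antigen presentation genes were more than 2-fold above replicate 1, and Pax7, Heyl, Fgfr4, Mest, Mlf1 and Cxcr4 were also higher. Their differences, and the list counts that moved by over 1.5 times, are given below with and without this library.

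A total of 1901 genes (11.2% of those tested) differed in their response between the cell types. The response of PMs was higher for 641 genes (3.79%) and lower for 1260 genes (7.44%), while the median difference over all 16926 genes was -0.003. Taken alone, differentiation changed 5091 genes (30.1%) in PMs and 4810 genes (28.4%) in C2C12 cells. Among the 1260 genes, 479 rose in C2C12 cells alone, 350 rose in both cell types but less in PMs, 107 rose in C2C12 cells and fell in PMs, and 212 fell in PMs alone. Among the 641 genes, 301 rose in PMs alone, 147 fell in C2C12 cells alone, 60 rose in both but more in PMs, and 48 rose in PMs and fell in C2C12 cells. These responses share their libraries with the difference, so that the breakdown is a description of it.

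The 2 sets started from different levels. PMs and C2C12 cells differed in 4534 genes (26.8%) at day 0 and in 5044 genes (29.8%) at day 3. The 1260 genes had a median of 2 CPM in C2C12 cells at day 0 and of 20.7 CPM at day 3, whereas in PMs the medians were 16.7 and 16.2 CPM. The median gap between PMs and C2C12 cells for this set was log2 2.27 at day 0 and -0.46 at day 3. The 641 genes had medians of 8.82 and 5.38 CPM in C2C12 cells and of 3.6 and 11.6 CPM in PMs, with a median gap of -0.78 at day 0 and 1.05 at day 3. Leaving out 1 library at a time gave 957 to 1140 lower genes, and 418 to 608 higher genes, with the lowest counts of 418 without replicate 2 of the PMs at day 0 and 426 without replicate 1 of the PMs at day 3. Every one of the 1260 genes kept its sign in all 8 leave-outs, and 640 of the 641 did.

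**Figure D1:**
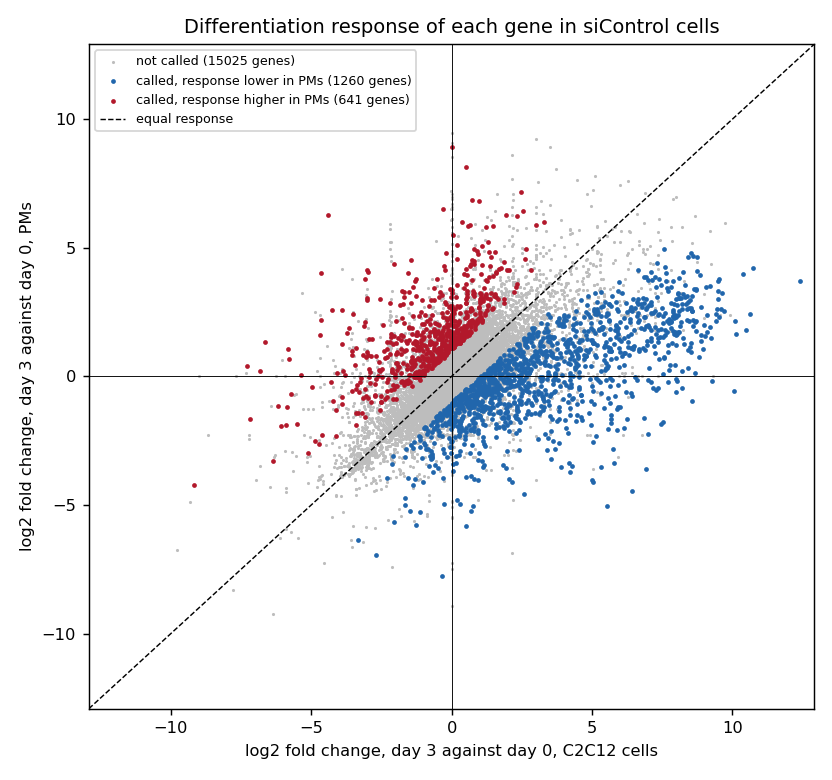
Each point is 1 of the 16926 tested genes, with its log2 fold change from day 0 to day 3 in C2C12 cells on the x axis and in PMs on the y axis, and a dashed line of equal response. The 1260 genes called lower in PMs (blue) spread far to the right along the C2C12 axis, and the 641 called higher (red) lie above the line with smaller changes.

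**Figure D2:**
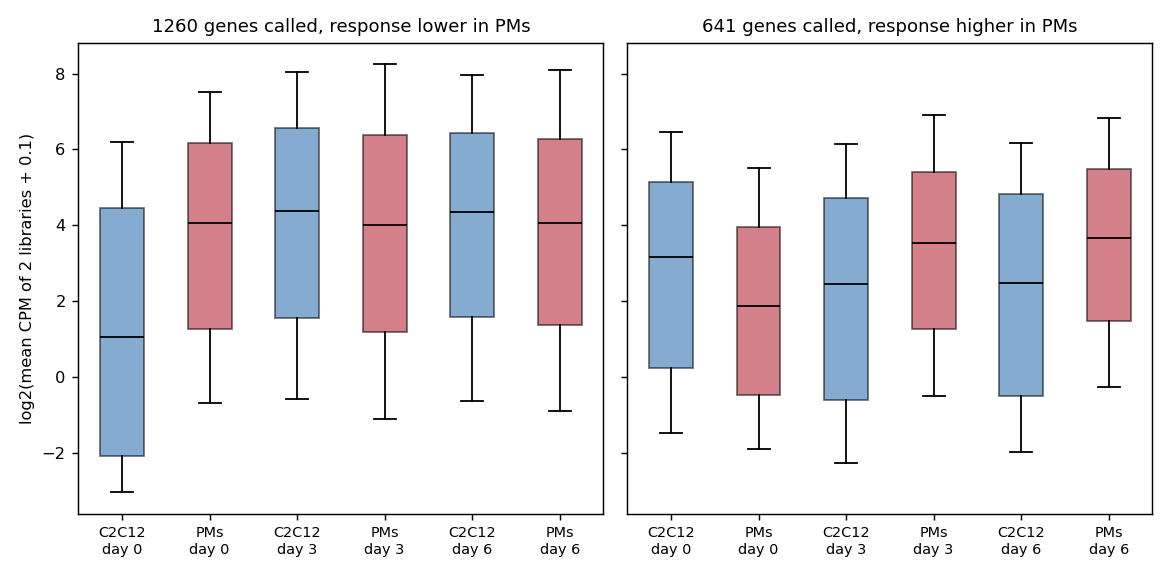
Boxes show the quartiles, with whiskers at the 10th and 90th percentiles, of log2(mean CPM of 2 libraries + 0.1) over the 1260 genes called lower (left) and the 641 called higher (right) in each siControl group. The C2C12 cells of day 0 stand below all other groups on the left, where the medians of days 3 and 6 are alike in both cell types.

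Of 36 myogenic factors tested, 16 were higher and 3 lower in PMs than in C2C12 cells at day 0. Of all genes tested, 16.3% were higher and 10.5% lower at that day. In mean CPM, 17 of the 36 lay within 2-fold between the cell types, against 72.4% of all genes tested. Myog, the factor that commits myoblasts to terminal differentiation, stood at 9.68 and 2.91 CPM in C2C12 cells at day 0 and at 1154 and 1125 CPM at day 3. In PMs it stood at 959.7 and 1039 CPM already at day 0 and at 986 and 1168 CPM at day 3. The 4 PM values and the C2C12 values of day 3 thus lay in the same range, and only the C2C12 libraries of day 0 stood apart, with a difference of responses of -7.41 (SE 0.72, edgeR adjusted p = 2.54e-06). Myog lies at chr1:136186581-136189124 and Gm7325, described next, at chr17:45737916-45739051 (mm9, the coordinates of the deposited table). Rbm24, an RNA-binding protein of muscle splicing, had a like pattern, with 1.52 and 0.249 CPM in C2C12 cells at day 0, 199.8 and 211 CPM at day 3, and 336 and 357 CPM at day 0 and 314 and 324 CPM at day 3 in PMs (difference -8.09). Mef2c, a partner of the myogenic factors, rose in both cell types, from 8.81 and 9.69 CPM to 351 and 548 CPM in C2C12 cells and from 192 and 206 CPM to 1351 and 1482 CPM in PMs (difference -2.77, edgeR adjusted p = 0.000234).

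Among the factors of undifferentiated myoblasts, Myod1 and Pax7 were lower with falls in PMs. Myod1 fell in PMs from 1006 and 1012 CPM to 408 and 464 CPM, and stood at 173 and 174 CPM in C2C12 cells at day 3 (difference -1.61, edgeR adjusted p = 0.00409). Pax7, the satellite cell factor, fell from 101 and 99.2 to 25.6 and 47.3 CPM in PMs and stood at 23.3 and 18.6 CPM at day 0 and 31.7 and 33.1 CPM at day 3 in C2C12 cells (difference -2.08, edgeR adjusted p = 0.0178). Its lower PM value of day 3 overlapped the C2C12 values, and the higher one came from replicate 2, without which the difference was -2.58. Myf5 (difference -1.17, edgeR adjusted p = 0.312) and Myf6, the late myogenic factor (difference 1.34, edgeR adjusted p = 0.231), did not pass the test. Twist2 and Msc, repressors of the myogenic factors, had higher responses in PMs, Twist2 with a fall in C2C12 cells from 28.1 and 31.5 CPM to 6.3 and 5.87 CPM. In the difference of responses, 2 of the 36 myogenic factors were higher and 12 lower, against 3.79% and 7.44% of all genes tested, with a median difference of -0.76. Over the other settings 1 (minimum of 10 counts) to 4 (no filter, or the 8 libraries) were higher and 5 (log2 test) to 15 (no filter) lower.

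Fusion genes gave the largest single difference. Gm7325, which encodes Myomixer, rose in C2C12 cells from 0.338 and 0.213 CPM to 183 and 150 CPM, whereas PMs held 65.5 and 94.1 CPM at day 0 and 65 and 74.5 CPM at day 3. At day 3 both C2C12 libraries lay above all 4 PM libraries, and its difference of -9.47 (SE 0.73, edgeR adjusted p = 3.26e-07) was the largest among called genes that had over 10 CPM in a group and were above the floor of 3 counts in all groups. Next in that ranking, outside the fusion list, were B3galt5 (-9.28), Chrdl1 (-9.23), Slc44a4 (-8.64) and Otog (-8.57), each of which rose in C2C12 cells. Tmem8c, which encodes Myomaker, rose from 5.38 and 1.85 CPM to 970.1 and 854 CPM in C2C12 cells and from 371 and 392 CPM to 1229 and 1078 CPM in PMs (difference -6.41, edgeR adjusted p = 1.17e-05). Of 29 fusion genes, 9 were lower and 2 higher, against 7.44% and 3.79% of all genes tested. The 2 higher genes were Nfatc2 and Dock5. Dock5 was not called without replicate 2 of the PMs at day 0, replicate 1 of the C2C12 cells at day 3 or replicate 2 of the C2C12 cells at day 0. The log2 test called 5 lower and 1 higher, and the minimum of 10 counts 1 higher.

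**Figure D3:**
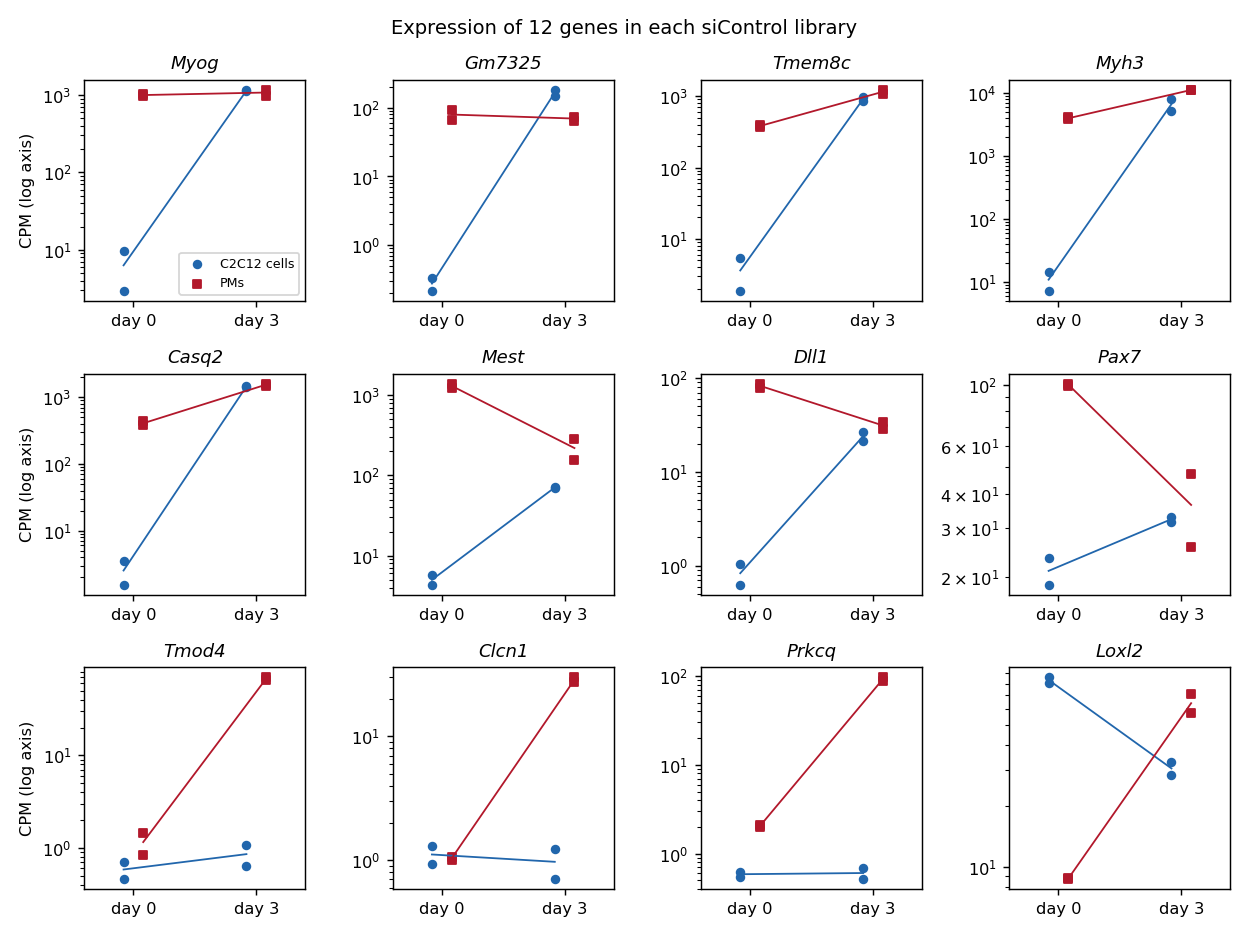
Expression in CPM on log axes of 12 genes in each siControl library at days 0 and 3, with blue circles for C2C12 cells, red squares for PMs and lines through the mean of 2 libraries. Myog, Gm7325, Tmem8c, Myh3 and Casq2 start low in C2C12 cells alone, Mest, Dll1 and Pax7 fall in PMs, Tmod4, Clcn1 and Prkcq rise in PMs alone, and Loxl2 crosses between the cell types.

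Contractile genes made up the group with the largest difference. Of 77 sarcomere genes, 55 had a lower response in PMs and 3 a higher one, against 7.44% and 3.79% of all genes tested. The 3 higher genes were thus close to the share of all genes. The median difference was -4.26 against -0.003 over all genes. With the minimum of 10 counts 48 genes were tested and 33 were lower. The median sarcomere gene rose by log2 7.04 in C2C12 cells and by 2.28 in PMs, and its gap between PMs and C2C12 cells was 5.69 at day 0 and 1.12 at day 3. Myh3, the embryonic myosin heavy chain, went from 14.8 and 7.2 CPM to 5197 and 8070 CPM in C2C12 cells and from 4113 and 3793 CPM to 11030 and 11170 CPM in PMs (difference -7.76, edgeR adjusted p = 2.18e-07). PMs were above C2C12 cells at both days. Myoz2, a Z-disc protein of slow fibres, ended in the reverse order, at 152 and 150.5 CPM in C2C12 cells and 36.1 and 71.2 CPM in PMs at day 3, after 0.141 and 0.124 CPM in C2C12 cells and 18.7 and 15.3 CPM in PMs at day 0. Myh7, the slow myosin, likewise stood at 333 and 512 CPM in C2C12 cells and at 33.4 and 44.9 CPM in PMs at day 3. Myh7b (difference -7.89) stood at 30.4 and 42.9 CPM in C2C12 cells and at 8.53 and 9.58 CPM in PMs on that day.

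Genes with a group at the floor are given by level alone. Ankrd2, a stretch-responsive ankyrin repeat protein of slow muscle, had 3 and 3 counts in C2C12 cells at day 0 and 84.9 and 60.7 CPM at day 3, and 15.3 and 11.3 CPM at day 0 and 13.1 and 5 CPM at day 3 in PMs. Myl2, the slow regulatory light chain, had no count in C2C12 cells at day 0, 18 and 16.2 CPM at day 3, and 0.0848 and 0.31 CPM at day 0 and 2.41 and 2.53 CPM at day 3 in PMs. Limch1 and Frem2, both at the floor in C2C12 cells at day 0, ended higher in PMs, Limch1 with 162 and 197 CPM against 17.8 and 20.6 CPM. Ckm, the muscle creatine kinase, rose from 2 and 0.284 CPM to 389 and 387 CPM in C2C12 cells and from 83.9 and 53.6 CPM to 2231 and 1624 CPM in PMs (difference -3.7, edgeR adjusted p = 0.00371). Myosin heavy chains and actins have close paralogs, and reads shared between them may have been left out or misassigned in the counting.

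Among genes of the muscle membrane and calcium release, more were lower than higher. Of 40 genes of excitation-contraction coupling, 19 were lower and 4 higher (median -0.99). The coupling, junction and protein turnover counts given here are to be read against 7.44% lower and 3.79% higher among all genes tested. Casq2, a calcium-binding protein of the sarcoplasmic reticulum, rose from 3.52 and 1.53 CPM to 1424 and 1496 CPM in C2C12 cells, and from 435 and 382 to 1497 and 1609 CPM in PMs (difference -7.28, edgeR adjusted p = 9.54e-08). The values of the cell types at day 3 lay side by side. Scn4a, the muscle sodium channel, and Cav3, the muscle caveolin, had differences of -6.98 and -5.79. Of 35 genes of the neuromuscular junction and dystrophin complex, 15 were lower and 3 higher, led by Chrng, the fetal subunit of the acetylcholine receptor. It stood at 2.31 and 0.622 CPM in C2C12 cells at day 0, at 521 and 517 CPM at day 3, and at 329 and 354 CPM at day 0 and 916 and 768 CPM at day 3 in PMs (difference -7.23, edgeR adjusted p = 1e-06). Chrna1, the alpha subunit, differed by -2.24. The 3 higher genes became 1 without replicate 2 of the PMs at day 0, replicate 1 of the C2C12 cells at day 3 or replicate 2 of the C2C12 cells at day 0. Of 33 genes of protein turnover, 6 were lower and none higher (1 higher without replicate 1 of the PMs at day 3 or replicate 2 of the C2C12 cells at day 0), led by Trim63, a muscle ubiquitin ligase, at -5.39. Over the other settings up to 3 genes of that list were higher (no filter), with 2 by DESeq2, the replicate block and the fit to the 8 libraries. With the log2 test the junction genes had 1 higher and 9 lower, and with the minimum of 10 counts no coupling gene was higher.

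**Figure D4:**
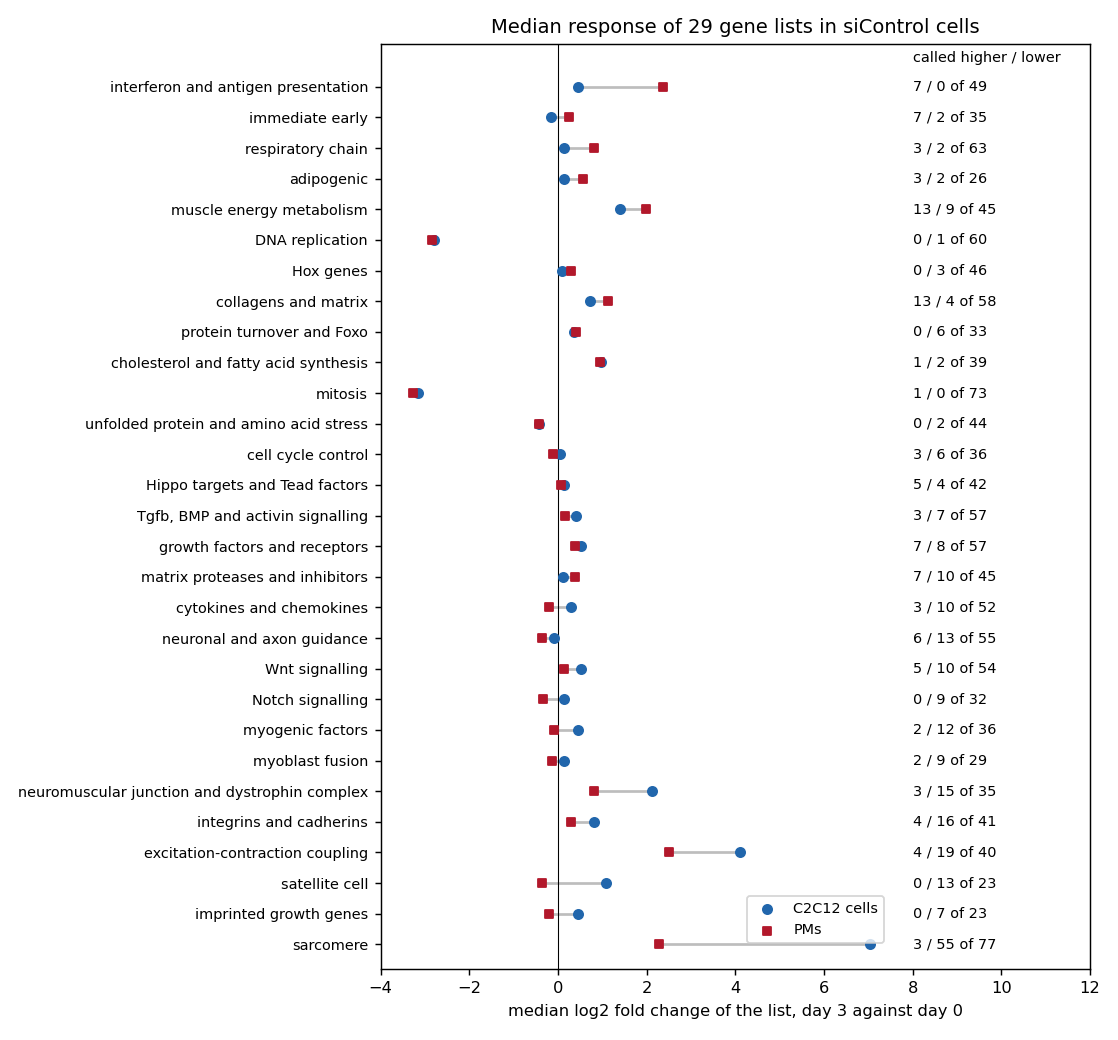
Median log2 fold change from day 0 to day 3 of 29 gene lists in C2C12 cells (blue circles) and PMs (red squares), sorted by the median difference, with the number of genes called higher or lower in PMs of those tested. The sarcomere list lies farthest apart, at 7.04 in C2C12 cells and 2.28 in PMs, and DNA replication and mitosis lie together on the left.

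Promoters of some of these genes are shown for the E-box CAGCTG, a sequence that myogenic factors recognise, whose shares are given as a description with no test. Other forms of the E-box were not searched. The 250 bases before the start were taken from RefSeq (GRCm38.p6) for genes with a single listed start, which left 636 of 1259 symbols called lower and 322 of 640 called higher. CAGCTG reads the same on both strands and was found in 23.3% of the promoters of genes called lower, in 12.7% of those called higher, in 12.5% of those of tested genes and in 12.7% of all 22862 promoters. Among genes that rose in C2C12 cells its share was 19.9%, and among those that rose in PMs 16.8%. CATTCC, the core of the MCAT element (CATTCCA or CATTCCT) that Tead factors bind, was searched with its reverse complement GGAATG, whatever base followed it. This core, not overlapping CAGCTG, was in 15.1% of the promoters of genes called lower, in 11.2% of those called higher, in 11.1% of those of tested genes and in 12.6% of all. Among genes that rose in C2C12 cells its share was 14.8%, and among those that rose in PMs 13.2%. Each match is a description of these letters and not a bound site. The promoters of Chrng (chr1:87205561-87205810, plus strand), Chrna1 (chr2:73580339-73580588, minus strand), Trim63 (chr4:134314870-134315119, plus strand), Myog (chr1:134289754-134290003, plus strand) and Tmod4 (chr3:95124264-95124513, plus strand) follow, chosen after their values were seen, with both motifs in capitals.
Chrng: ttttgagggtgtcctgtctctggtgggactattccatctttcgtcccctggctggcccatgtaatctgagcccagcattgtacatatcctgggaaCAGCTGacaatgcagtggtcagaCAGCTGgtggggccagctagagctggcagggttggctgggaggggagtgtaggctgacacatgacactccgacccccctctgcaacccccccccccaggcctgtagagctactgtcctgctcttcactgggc
Chrna1: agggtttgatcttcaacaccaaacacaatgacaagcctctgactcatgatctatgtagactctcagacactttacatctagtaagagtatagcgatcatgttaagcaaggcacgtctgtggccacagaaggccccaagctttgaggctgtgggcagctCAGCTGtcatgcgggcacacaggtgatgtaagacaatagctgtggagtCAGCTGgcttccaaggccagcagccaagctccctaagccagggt
Trim63: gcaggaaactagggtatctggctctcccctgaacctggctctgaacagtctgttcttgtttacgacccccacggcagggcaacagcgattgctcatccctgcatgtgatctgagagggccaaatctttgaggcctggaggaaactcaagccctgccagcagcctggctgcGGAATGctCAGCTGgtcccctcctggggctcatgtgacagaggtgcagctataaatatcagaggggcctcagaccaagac
Myog: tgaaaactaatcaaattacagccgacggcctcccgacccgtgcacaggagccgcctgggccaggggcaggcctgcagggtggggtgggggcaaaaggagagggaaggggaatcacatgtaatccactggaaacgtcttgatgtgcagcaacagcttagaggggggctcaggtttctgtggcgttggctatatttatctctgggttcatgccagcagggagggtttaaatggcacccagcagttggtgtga
Tmod4: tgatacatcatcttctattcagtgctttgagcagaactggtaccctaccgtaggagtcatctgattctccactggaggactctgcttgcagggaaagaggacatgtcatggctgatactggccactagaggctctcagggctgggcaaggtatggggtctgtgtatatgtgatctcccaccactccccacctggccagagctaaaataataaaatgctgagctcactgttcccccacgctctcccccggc
Chrng and Chrna1, both lower in PMs, held CAGCTG at 2 places each. Trim63 held it once beside the reverse complement of CATTCC, where the next base makes CATTCCG and not the full MCAT element. Myog, also lower in PMs, held neither motif in this window, but other E-box forms, such as the cagttg near its end, were not searched. Tmod4, which was higher in PMs, held neither. Of 3 further promoters searched, that of Myoz2 (lower) held CAGCTG once, and those of Clcn1 and Prkcq (higher) held neither motif.

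Some genes named for a large positive difference rose in PMs and stood low in C2C12 cells at day 3. They were picked by that value, with no count or test of them as a group. Others of the largest were falls in C2C12 cells. Plek fell there from 19.56 and 15.55 to 0.330 and 0.304 CPM (difference 6.47), and Npr3 from 49.2 and 34 to 1.04 and 0.972 CPM (difference 5.43). Stard8 rose in PMs from 1.76 and 0.986 to 36.2 and 27.6 CPM, and held 0.118 and 0.0607 CPM in C2C12 cells at day 3 (difference 5.97). Tmod4, which caps thin filaments in skeletal muscle, stood at 0.704 and 0.462 CPM at day 0 and 0.637 and 1.07 CPM at day 3 in C2C12 cells, and at 1.46 and 0.845 CPM at day 0 and 69.7 and 65.1 CPM at day 3 in PMs (difference 5.25, SE 0.56, edgeR adjusted p = 7.31e-06). Clcn1, the muscle chloride channel, stood at 0.708 and 1.24 CPM in C2C12 cells and at 29.9 and 27.4 CPM in PMs at day 3, after 0.929 and 1.3 CPM in C2C12 cells and 0.996 and 1.07 CPM in PMs at day 0 (difference 4.99). In both genes the PMs of day 3 alone stood apart. Prkcq, the protein kinase C theta of muscle, rose from 1.97 and 2.11 to 96.7 and 87.8 CPM in PMs and held 0.519 and 0.688 CPM in C2C12 cells at day 3 (difference 5.43). Nfatc2, a transcription factor activated by calcineurin, rose from 1.74 and 1.89 to 24 and 23.4 CPM in PMs (difference 5.03). In C2C12 cells it fell from 1.15 and 1.19 CPM to 0.472 and 0.466 CPM. Myoz1, the Z-disc protein of fast fibres, reached 395 and 379.7 CPM in PMs and 3.28 and 2.49 CPM in C2C12 cells (difference 3.88, edgeR adjusted p = 0.00505).

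Some of these values rest on few reads in C2C12 cells. Myoz1 stood at 1.07 and 0.0533 CPM in C2C12 cells at day 0, and its difference was 0.75 without replicate 1 and 5.02 without replicate 2 of that group. Sln, an inhibitor of the calcium pump, stood at 0.283 and 0 CPM in C2C12 cells and 83.7 and 133 CPM in PMs at day 3, with a difference of 5.62 that became 3.31 without C2C12 replicate 1 of day 0 and 11.07 without C2C12 replicate 1 of day 3. Rcsd1, at the floor in C2C12 cells at day 0, had 7 and 1 counts there at day 3 and 84.9 and 88.4 CPM in PMs. Thrsp, with at most 2 counts in each of the 4 C2C12 libraries, stood at 32.7 and 29.6 CPM in PMs at day 3. Kcnq5, a potassium channel, had no count in C2C12 cells at day 3 and stood at 17.2 and 22.3 CPM in PMs.

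Genes of energy metabolism were called in both directions. Of 45 genes of muscle energy metabolism, 13 had a higher response in PMs and 9 a lower one, against 3.79% and 7.44% of all genes tested, with a median difference of 0.40. The higher genes held glycolytic and glycogen enzymes. Pgm2, a phosphoglucomutase, rose from 78.1 and 53.2 CPM to 500.3 and 353 CPM in PMs and stood at 87.7 and 74.8 CPM at day 0 and 93.6 and 99.3 CPM at day 3 in C2C12 cells (difference 2.45, edgeR adjusted p = 0.000276). Gpd1, the glycerol phosphate dehydrogenase, reached 146 and 96 CPM in PMs and 4.98 and 6.32 CPM in C2C12 cells at day 3 (difference 2.73). Ldha, Tpi1, Aldoa and Hk2 of glycolysis differed by 1.59, 1.44, 1.34 and 1.44. The lower genes held Mb, the myoglobin, at -5.22, and Cd36, a fatty acid transporter, at -6.39. The count of 13 became 3 with the log2 test, 7 without replicate 1 of the PMs at day 3, replicate 2 of the PMs at day 0, or replicate 1 of the C2C12 cells at day 0 or day 3, and the count of 9 became 5 without replicate 2 of the C2C12 cells at day 0.

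Few respiratory chain genes passed the test. Of 63 genes, 3 were called higher and 2 lower, where 3.79% and 7.44% of all genes tested were. A positive difference was found in 58 of the 63, with a median of 0.63, and in 8434 of all 16926 genes, with a median of -0.003. Uqcrc1, a subunit of complex III, went from 353 and 333 to 702 and 585 CPM in PMs and from 223 and 181 to 181 and 164 CPM in C2C12 cells (difference 1.14, edgeR adjusted p = 0.00428). The lower genes were Cox6a2 and Cox8b, both muscle-specific subunits. Cox6a2 differed by -3.6, and Cox8b had 0 and 1 counts in C2C12 cells at day 0 and 11.6 and 9.11 CPM at day 3, against 5.59 and 4.48 CPM at day 0 and 75.4 and 63.2 CPM at day 3 in PMs. The other 3 genes with a negative difference, among them Cox8a (-0.64) and Cox6a1 (-0.11), did not pass the test of edgeR. With total count scaling, which moved the median of all genes to -0.17, Uqcrc1 stood at 0.97 and was not called. The count of 3 became 11 without replicate 2 of the C2C12 cells at day 0, 9 without replicate 2 of the PMs at day 3, 7 without replicate 1 of the C2C12 cells at day 3, and 2 without replicate 1 of the PMs at day 3 or of the C2C12 cells at day 0. The count of 2 lower became 1 without replicate 2 of the C2C12 cells at day 0. The log2 test called 0 higher, and the minimum of 10 counts 0 lower.

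Satellite cell and Notch genes that passed the test were lower in PMs. Of 23 satellite cell genes 13 were lower and of 32 Notch genes 9, with none higher in either list (medians -1.48 and -0.59). Among all genes tested 7.44% were lower and 3.79% higher. Dll1, a Notch ligand, fell from 78.4 and 87.5 CPM to 28.9 and 33.7 CPM in PMs and rose from 1.04 and 0.622 CPM to 21.4 and 26.7 CPM in C2C12 cells (difference -6.29, edgeR adjusted p = 1.5e-06). At day 3 the values came close, with both C2C12 libraries under both PM libraries. Heyl, a Notch target, stood at 1.15 and 0.942 CPM at day 0 and 48.4 and 59.1 CPM at day 3 in C2C12 cells and at 66 and 64.5 CPM at day 0 and 64.1 and 143 CPM at day 3 in PMs (difference -5.03, and -5.70 without replicate 2 of the PMs at day 3). Fgfr4, a growth factor receptor of myoblasts, fell from 187 and 157 to 40.5 and 82.7 CPM in PMs and rose to 26.1 and 24.9 CPM in C2C12 cells (difference -5.69, and -6.28 without that library). The satellite cell count of 13 became 8 without replicate 1 of the PMs at day 3 or without replicate 2 of the C2C12 cells at day 0, and 11 was its highest value over the leave-outs. Without replicate 1 of the C2C12 cells at day 0, 1 satellite cell gene was called higher. With the log2 test 7 satellite cell genes were lower. DESeq2 called 1 Notch gene higher, and voom, the replicate block and the fits without a filter or to the 8 or 12 libraries called 2.

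Imprinted growth genes had 7 of 23 lower and none higher by edgeR (median -1.60), against 7.44% and 3.79% of all genes tested. With DESeq2 or the 8 libraries 1 imprinted gene was higher, and without a filter or with the replicate block 2 were. Igf2, the insulin-like growth factor, stood at 7.8 and 3.66 CPM in C2C12 cells at day 0 and at 326 and 412 CPM at day 3, and at 1827 and 1498 CPM at day 0 and 4823 and 3852 CPM at day 3 in PMs (difference -4.64, edgeR adjusted p = 6.14e-05). H19, the noncoding RNA of the same locus, went from 420 and 314 CPM to 11470 and 12670 CPM and from 12670 and 10180 CPM to 31920 and 24780 CPM (difference -3.73). For both genes, the PM libraries were above the C2C12 libraries at day 0 and at day 3. Mest fell in PMs from 1220 and 1393 CPM to 155 and 284 CPM and rose in C2C12 cells from 4.31 and 5.7 to 68.9 and 72.6 CPM (difference -6.39, edgeR adjusted p = 0.000126, and -6.88 without replicate 2 of the PMs at day 3).

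Secreted signals and their receptors went both ways. Wnt genes had 5 of 54 higher and 10 lower, Tgfb, BMP and activin genes 3 of 57 higher and 7 lower, and growth factors and receptors 7 of 57 higher and 8 lower, where 3.79% of all genes tested were higher and 7.44% lower. The growth factor counts depended on the setting, with 4 (log2 test) to 11 (no filter, or the 12 libraries) higher and 6 (log2 test or minimum of 10 counts) to 15 (no filter, or replicate block) lower, and 13 lower with DESeq2 and with voom. Fst, which binds activins and myostatin, rose from 5.15 and 6.11 CPM to 319.8 and 443 CPM in C2C12 cells and stood at 12.7 and 25.4 CPM at day 0 and 32.4 and 33.5 CPM at day 3 in PMs (difference -5.28, edgeR adjusted p = 7.98e-05). Mstn, the myostatin gene, had no count in C2C12 cells at day 0 and 2 and 4 counts at day 3, against 40.6 and 42 CPM at day 0 and 22.6 and 16.4 CPM at day 3 in PMs. Ngfr, a neurotrophin receptor, fell from 19.7 and 15.5 CPM to 0.212 and 0.101 CPM in C2C12 cells and stood at 5.55 and 6.06 CPM at day 0 and 10.2 and 3.16 CPM at day 3 in PMs (difference 7.01, edgeR adjusted p = 0.000321). Cxcl12 and its receptor Cxcr4, which guide migrating myoblasts, were both lower, with -4.61 and -3.75, and fell in PMs. For Cxcr4 the difference was -5.04 without replicate 2 of the PMs at day 3. The 5 higher Wnt genes became 2 without replicate 1 of the PMs at day 0 or of the C2C12 cells at day 3, and 3 without replicate 1 of the PMs at day 3 or of the C2C12 cells at day 0. The 3 higher Tgfb genes became 5 without replicate 2 of the PMs at day 3, and the 7 lower became 4 without replicate 1 of the PMs at day 3, replicate 2 of the PMs at day 0 or replicate 2 of the C2C12 cells at day 0. Over the other settings the Tgfb genes had 1 (log2 test) to 7 (no filter) higher, with 5 by DESeq2, and 3 (log2 test) to 9 lower, and the Wnt genes 3 (log2 test or minimum of 10 counts) to 6 higher.

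By day 3, the median fall of replication and mitosis transcripts was nearly the same in both cell types. The median DNA replication gene fell by 2.84 in PMs and by 2.79 in C2C12 cells on the log2 scale, and the median mitosis gene by 3.28 and 3.16. Of 60 and 73 genes, 1 each passed the test of the difference, Rrm2 (the ribonucleotide reductase subunit, -1.65) and Pttg1 (securin, 3.21). Over the other settings 0 (log2 test) to 2 DNA replication genes were lower, 2 were higher in the 8 libraries and 1 in the 12, and 1 mitosis gene was lower with voom or the replicate block. Among 36 genes of cell cycle control, 3 were higher and 6 lower, against 3.79% and 7.44% of all genes tested. Ccnd1, the cyclin D1 gene, fell from 398 and 491 CPM to 17.1 and 13.6 CPM in C2C12 cells and from 529 and 497 CPM to 98.2 and 81.8 CPM in PMs (difference 2.35, edgeR adjusted p = 0.000659). Ccnd2 rose in PMs, from 85.7 and 61.7 to 214 and 191 CPM, and stood at 25.9 and 26.2 CPM in C2C12 cells (difference 2.47), whereas Ccnd3 rose in C2C12 cells (difference -2.37). Cdkn1a, the inhibitor p21, rose from 186 and 126 CPM to 1759 and 1695 CPM in C2C12 cells and from 789 and 705 CPM to 2325 and 2056 CPM in PMs (difference -1.92). Cdkn2a, an inhibitor at a locus often lost in cell lines, had 2 and 0 counts in C2C12 cells at day 0 and 1 and 0 at day 3, against 45.3 and 51.6 CPM at day 0 and 15.3 and 29.2 CPM at day 3 in PMs.

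More matrix genes were higher than lower in PMs. Of 58 collagen and matrix genes, 13 were higher and 4 lower, against 3.79% and 7.44% of all genes tested, while their median difference was 0.03. Loxl2, a collagen crosslinking enzyme, fell in C2C12 cells from 80.9 and 85.8 to 32.9 and 28.2 CPM and rose in PMs from 8.78 and 8.73 to 70.8 and 57.3 CPM (difference 4.32, edgeR adjusted p = 2.97e-05). The order of the cell types was thus opposite at days 0 and 3. Col6a3, a chain of collagen VI, fell in C2C12 cells from 487 and 783 CPM to 129 and 179 CPM and rose in PMs from 89.7 and 63.3 to 250.3 and 203 CPM (difference 3.61). Fbln2 (fibulin 2) and Timp3 (a metalloprotease inhibitor) differed by 3.55 and 3.08. The count of 13 became 6 with the log2 test, and 8 without replicate 2 of the PMs at day 0 or without replicate 1 of the C2C12 cells at day 3. Of 45 proteases and inhibitors, 7 were higher and 10 lower, and 3 were higher without replicate 1 of the PMs at day 0, replicate 1 of the PMs at day 3, replicate 2 of the PMs at day 0 or replicate 2 of the C2C12 cells at day 3. The 7 became 3 with the log2 test, 4 with the minimum of 10 counts and 11 without a filter.

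The 4 lower matrix genes by edgeR were Dcn, Lum, Ogn and Fbln1, which fibroblasts express. Dcn, decorin, went from 1.04 and 0.675 CPM to 181 and 70.6 CPM in C2C12 cells, and stood at 1.23 and 2.14 CPM at day 0 and 4.85 and 2.78 CPM at day 3 in PMs (difference -6.03, edgeR adjusted p = 0.000577), and Ogn, osteoglycin, differed by -4.19. The count of 4 was 2 without replicate 1 of the PMs at day 3 or with the log2 test, 6 with DESeq2, 7 with voom or the replicate block, 8 in the 8 or the 12 libraries and 10 without a filter. Of 11 fibroblast markers tested, Dcn, Lum and Pi16 were called lower and none higher by edgeR, with a median difference of -3.3. Of all genes tested 7.44% were lower and 3.79% higher. Over the other settings 1 (minimum of 10 counts) to 6 (no filter, or replicate block) of these markers were lower, with 5 by DESeq2. From day 0 to day 3, 6 of the 11 rose in C2C12 cells (median 3.57) and 3 in PMs (median 0.41), against 16.7% and 17.2% of all genes tested. The median marker stood at 0.246 CPM in C2C12 cells at day 0 and 15.5 CPM at day 3, and at 1.69 and 3.82 CPM in PMs. Their summed level was 397 and 426 CPM in C2C12 cells at day 0, 959 and 679.8 CPM at day 3, 169 and 139.9 CPM in PMs at day 0, and 445 and 314 CPM at day 3, with Gsn the most abundant. The part of fibroblast-like cells in the matrix results was not tested.

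The counts of inflammatory genes depended on single libraries and on the setting. Of 52 cytokines and chemokines, 10 were lower (6 without replicate 2 of the PMs at day 0) and 3 higher, and of 49 interferon and antigen presentation genes, 7 were higher and none lower by edgeR (median 1.39), where 3.79% of all genes tested were higher and 7.44% lower. The interferon list had 13 higher and 1 lower with DESeq2, 20 and 2 without a filter, and 3 higher with the log2 test, and voom, the replicate block and the fits to the 8 or 12 libraries also called 1 lower. H2-K1, a class I antigen presenting molecule, stood at 61.2 and 36.1 CPM at day 0 and 53.9 and 38.9 CPM at day 3 in C2C12 cells and rose from 12.8 and 13.1 to 89.8 and 83.9 CPM in PMs (difference 2.81, edgeR adjusted p = 2.79e-05). Its PM libraries of day 3 were alike. The list had 4 higher and 1 lower gene without replicate 2 of the PMs at day 3, and 13 higher without replicate 1. It also had 4 higher without replicate 2 of the PMs at day 0, or without C2C12 replicate 1 of day 0, replicate 1 of day 3 or replicate 2 of day 3. In the siTead1/4 libraries 2 of the 49 were higher and 3 lower, with a median of 0.14. The 3 higher cytokines became 0 without either PM library of day 0 or either C2C12 library of day 3, and 1 without replicate 1 of the PMs at day 3 or either C2C12 library of day 0. Over the other settings 0 (log2 test) to 5 (no filter) cytokines were higher and 6 (minimum of 10 counts) to 16 (no filter) lower.

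The remaining lists gave mixed counts, to be read against 3.79% higher and 7.44% lower among all genes tested. Of 35 immediate early genes 7 were higher and 2 lower, with Nr4a3, an orphan nuclear receptor, at 33.9 and 25.7 CPM in PMs at day 3 against 1.89 and 1.4 CPM in C2C12 cells (difference 4.59). The 2 lower genes became 1 without any of 6 libraries, the exceptions being replicate 1 of the PMs at day 0 and replicate 2 of the C2C12 cells at day 3. Of 41 integrins and cadherins 4 were higher and 16 lower, with Itgb4 falling in PMs from 136 and 150.4 to 10.9 and 8.85 CPM (difference -4.57). The 4 became 1 without replicate 1 of the PMs at day 3, and 2 without replicate 1 of the PMs at day 0 or replicate 1 of the C2C12 cells at day 0 or day 3. Neuronal genes had 6 of 55 higher and 13 lower, the former with Nefm and Nefl, neurofilament subunits that fell in C2C12 cells from 82.8 and 80.8 to 1.72 and 1.88 CPM and from 113 and 106 to 1.04 and 1.6 CPM. Over the 8 leave-outs the list had 2 to 4 higher and 6 to 9 lower genes, with 2 higher without replicate 1 of the PMs at day 3 or replicate 2 of the C2C12 cells at day 0, and 3 without replicate 1 of the PMs at day 0, replicate 1 of the C2C12 cells at day 0 or either C2C12 library of day 3. Lower were 6 without replicate 2 of the PMs at day 0, 7 without replicate 1 of the PMs at day 3 or either C2C12 library of day 0, and 8 without replicate 2 of the PMs or of the C2C12 cells at day 3. Adipogenic genes had 3 of 26 higher and 2 lower, cholesterol and fatty acid synthesis 1 of 39 and 2, Hox and related patterning genes 0 of 46 and 3, and the unfolded protein list 0 of 44 and 2. The 3 lower Hox genes and the 2 lower unfolded protein genes were no larger a share of their lists than the 7.44% of all genes. The 2 lower cholesterol genes became 0 without replicate 1 of the PMs at day 3 or of the C2C12 cells at day 0, and 1 without replicate 2 of the PMs at day 0 or of the C2C12 cells at day 0 or day 3. The 2 lower adipogenic genes became 1 without replicate 1 of the PMs at day 3, replicate 2 of the PMs at day 0 or replicate 1 of the C2C12 cells at day 0 or day 3. The other settings moved these small counts as well. Without a filter 11 immediate early genes were higher and 4 lower, and with the log2 test 0 were lower. The log2 test gave 1 higher and 9 lower integrins and cadherins, and 6 lower neuronal genes, of which 2 (log2 test or minimum of 10 counts) to 10 (voom) were higher. Adipogenic genes had 1 (log2 test) to 5 (DESeq2, or no filter) higher and 1 lower with the log2 test, and cholesterol genes 0 (voom or minimum of 10 counts) to 2 higher and 0 (log2 test) to 4 lower. Hox genes had up to 4 higher (voom, and 2 with DESeq2) and 1 (minimum of 10 counts) to 5 lower (DESeq2 among others). Unfolded protein genes had up to 5 higher (no filter, or the 8 libraries, and 1 with DESeq2) and 1 lower with the log2 test or the minimum of 10 counts.

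Genes that rose in one cell type and fell in the other numbered 48 (up in PMs) and 107 (up in C2C12 cells). Mlf1 rose in PMs from 2.65 and 3.18 to 14.3 and 31.6 CPM and fell in C2C12 cells from 2.62 and 1.71 to 0.189 and 0.324 CPM (difference 6.01, edgeR adjusted p = 4.69e-06, and 5.34 without replicate 2 of the PMs at day 3). Camk1g, a calcium-dependent kinase, fell in PMs from 19.8 and 29.8 to 1.77 and 2.63 CPM and rose in C2C12 cells from 0.563 and 0.533 to 9.53 and 12 CPM (difference -7.78, edgeR adjusted p = 1.45e-07). Nov, a secreted matrix-associated protein, fell in PMs from 3.2 and 4.9 to 0.337 and 0.278 CPM and rose in C2C12 cells from 0.478 and 0.96 to 17 and 10.2 CPM (difference -7.92). For Camk1g and Nov the cell types changed order between the days, and for Mlf1 they parted from values of 1.71 to 3.18 CPM at day 0. Cpn1, Slfn8, Chdh, Ccl11 and Cpa5 also met this rule but had a group at the floor, and none of them exceeded 6 CPM in any of the 4 groups.

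The same difference was measured in 8 libraries that the siControl comparison does not use, those of cells transfected with siRNAs against Tead1 and Tead4 (siTead1/4). There, 2398 genes (14.2%) were called, of which 968 (5.72%) were higher and 1430 (8.45%) lower in PMs. Voom called 569 higher and 935 lower, the fit to these 8 libraries alone 539 and 806, and the log2 test 263 and 517. The shares that follow rest on the 968 and 1430. Of the 641 higher genes of siControl cells 376 were called again, which is 58.7% of these and 38.8% of the 968. Of the 1260 lower genes 779 were called again, 61.8% of these and 54.5% of the 1430. In the siTead1/4 libraries 625 of the 641 genes had a positive difference and 1203 of the 1260 a negative one. Called in the opposite direction were 0 and 4 genes. Both fits drew on a shared estimate of the spread over all 24 libraries, but on no shared library, and the siTead1/4 C2C12 replicates stood farthest apart of these groups, as given above.

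Of 77 sarcomere genes, 5 were higher and 41 lower in siTead1/4 cells, with a median of -2.65. In the same cells satellite cell genes had 0 higher and 11 lower, Notch genes 1 and 6, imprinted growth genes 4 and 6, collagen and matrix genes 11 and 7, and respiratory chain genes 21 and 2, where 5.72% of all genes tested were higher and 8.45% lower. Myog differed by -6.85 and Gm7325 by -8.74 in siTead1/4 cells, close to -7.41 and -9.47 in siControl cells, and Tmod4 by 6.4. Mef2c differed by -0.13 in siTead1/4 cells, where it went from 17.5 to 157 CPM in C2C12 cells and from 154 to 1253 CPM in PMs (means of 2 libraries). The difference between the siRNAs for Mef2c was -2.64 and did not pass (edgeR adjusted p = 0.116). In the test of that difference 13 genes (0.0768%) passed, each with a lower value in siControl than in siTead1/4 cells. An unadjusted p under 0.05 was found for 1323 genes. Genes in both directions were called by DESeq2 (34 higher and 96 lower), the replicate block (14 and 64) and the fit without a filter (96 and 165). Over the 16 leave-outs this count of 13 ran from 1 to 68, and it was within 1.5 times of 13 only without replicate 2 of the siTead1/4 C2C12 cells at day 3, where it was 10. For Gja4 (1.33 and 6.71) and Mpp3 (2.28 and 6.02) the difference of responses was positive under both siRNAs and smaller in siControl cells. The 13 also included Itgb1bp2 (melusin) and Kbtbd10 (a kelch protein of the sarcomere), whose difference was -5.66 and -6.08 in siControl cells but -3.25 and -2.6 in siTead1/4 cells. Kbtbd10 reached 681 and 727 CPM in siControl C2C12 cells at day 3 and a mean of 259.5 CPM in siTead1/4 C2C12 cells, against 1019 and 916 and a mean of 978 CPM in PMs.

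Of the 4 Tead genes, 1 passed the test in siControl cells. Tead2 was lower in PMs, falling from 150 and 139 to 61.2 and 72.1 CPM there and standing at 86.2 and 76.1 CPM at day 0 and 91.5 and 81.3 CPM at day 3 in C2C12 cells (difference -1.21, edgeR adjusted p = 0.0039). Tead4 stood at 18.8 and 21.2 CPM at day 0 and 111 and 146 CPM at day 3 in C2C12 cells and at 64.2 and 59.5 CPM at day 0 and 194 and 197 CPM at day 3 in PMs, and its difference of -1.03 did not pass (edgeR adjusted p = 0.111). Tead1 (0.38, edgeR adjusted p = 0.822) and Tead3 (-0.09, edgeR adjusted p = 0.91) did not pass either. Of 42 Hippo targets and Tead factors, 5 were higher and 4 lower, against 3.79% and 7.44% of all genes tested, and the count of 5 became 2 without replicate 1 or 2 of the PMs at day 0, replicate 1 of the PMs at day 3, replicate 2 of the C2C12 cells at day 0 or replicate 1 of the C2C12 cells at day 3, and 3 without replicate 2 of the C2C12 cells at day 3. Over the other settings 1 (log2 test) to 6 were higher and 0 (log2 test) to 7 (no filter, total counts or replicate block) lower.

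**Figure D5:**
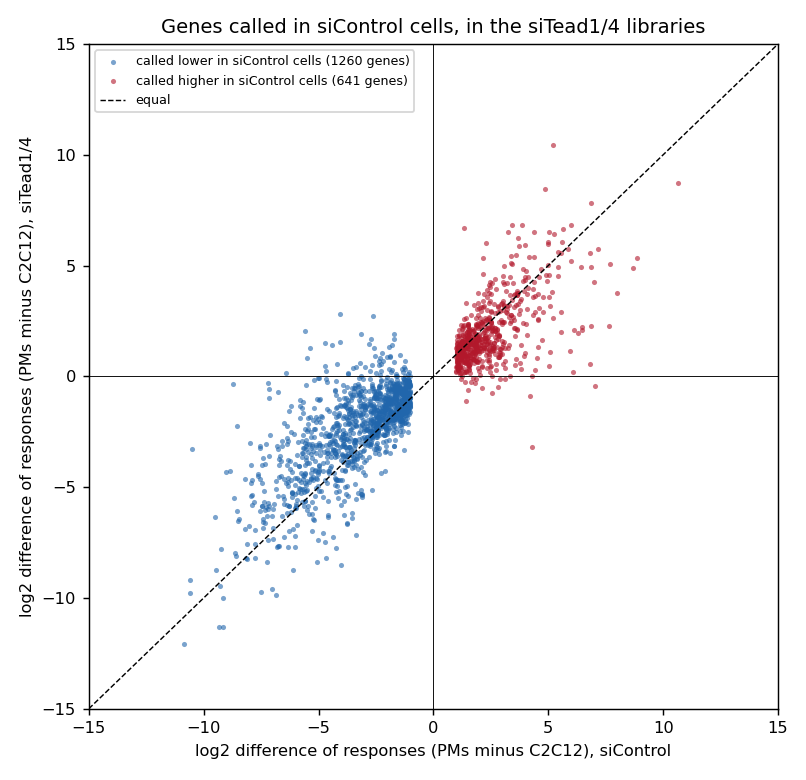
Each point is a gene called in siControl cells, with its log2 difference of responses (PMs minus C2C12 cells) in siControl cells on the x axis and in siTead1/4 cells, measured in other libraries, on the y axis. Of the 641 genes called higher (red) 625 lie above 0 on the y axis, and of the 1260 called lower (blue) 1203 lie below it.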

How the data were processed

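RNA-seq libraries were made from polyadenylated RNA without strand information. The authors deposited raw read counts per gene on mm9, and the submitters' processing notes name CASAVA 1.8.2, TopHat2 2.0.10, Bowtie2 2.1.0, HTSeq 0.6.1 and DESeq2 1.8.1. The deposited table also gives gene length, which was not used, and 84 per-sample columns (scaled values, and 12 libraries not listed among the samples) that were not used here. Counts of 24 libraries in 12 groups were fitted in R 4.3.3 with edgeR 4.0.16 (filterByExpr, TMM, glmQLFit, glmQLFTest). A group was taken as at the floor for a gene when neither of its libraries held more than 3 reads of it. The members, the 29 gene lists and the 7 marker lists were chosen with earlier results of these data known, so that lists are given by counts and medians without a list test. Named genes were the largest differences over 10 CPM in each direction, those of each list, and the largest opposite changes. A fixed set of myogenic, Tead and cell cycle genes was named whatever their values. The largest differences were taken only from genes that kept their sign in each leave-out. Not every named gene is printed, and any other gene was named after its values were seen. Alternatives were DESeq2 1.42.0, limma 3.58.1 (voom), other filters, scalings and fold thresholds, fewer libraries, a replicate block, and leaving out each library. On data simulated for the siControl difference (16738 genes) edgeR called 51 of 100 genes changed by log2 1.5 and 91 of 100 changed by log2 3, with 8 false calls. Small changes of genes with few counts may be missed, and recovery by count level or depth was not measured.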

Additional observations from a re-analysis of the deposited data

Results flagged for a closer look

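Results are listed here because the effect of differentiation differed between the cell types by a test of the difference itself. In siControl cells 641 genes had a higher and 1260 a lower response in PMs, and in siTead1/4 cells 968 and 1430. The difference between the 2 siRNAs passed for 0 genes in the positive and 13 in the negative direction with edgeR, for 34 and 96 with DESeq2, and 1323 genes had an unadjusted p under 0.05. Among genes called in opposite directions in the cell types and above the floor in every group, the difference of responses was 6.01 for Mlf1, 5.05 for Slc9a4, 5.2 for Bcl6b, -7.92 for Nov and -7.78 for Camk1g. Slc9a4 stayed under 1 CPM in each of the 8 libraries. Groups of 2 libraries are too small for Dixon's test of a single library.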

How the results depend on the processing

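Of 138 named genes above the floor, 133 were called, and all 133 kept their direction under every alternative and leave-out run. The largest differences among them had been named only where the sign held in each leave-out. For those genes the direction under leave-outs was thus fixed in advance. Of the 133, 99 also kept their call under all alternatives other than leave-outs and 108 under all leave-outs. For siControl cells, a test against a log2 of 1 gave 217 higher and 710 lower genes, and a minimum of 10 counts in every library gave 789 lower (11655 genes tested). For siTead1/4 cells, voom gave 569 and 935, the log2 test 263 and 517, the 8 libraries alone 539 and 806, and the 12 of the same siRNA 619 higher. Leave-outs gave 418 to 608 and 957 to 1140 for siControl cells, 696 to 1171 and 1001 to 1870 for siTead1/4 cells, and 0 to 136 and 1 to 68 for the difference between siRNAs. That difference gave, higher and lower, 34 and 96 with DESeq2, 96 and 165 without a filter, 1 and 21 with total counts and 14 and 64 with the replicate block, and, lower, 2 with voom, 1 with the log2 test and 8 in the 16 libraries of days 0 and 3. Under the minimum of 10 counts, rises were 1617 in PMs and 1625 in C2C12 cells, and the gap between PMs and C2C12 cells was called for 1101 and 995 genes on day 0 and for 1097 and 1256 on day 3. The log2 test gave 1560 rises and 1100 falls in PMs, 1743 and 978 in C2C12 cells, 993 lower at day 0, and 1792 and 1176 at day 3. The cause of these shifts was not tested beyond the fewer genes or libraries and the stricter thresholds that the alternatives hold. Total count scaling gave 501 higher and 1521 lower genes and moved the median of all genes by -0.17. The deviations of same-numbered libraries correlated at 0.41 between days 0 and 3 in C2C12 cells, at 0.12 in PMs, and at -0.0478 to 0.0807 across cell types, so that whether the numbers pair libraries within a cell type is not settled by the labels or by 2 replicates, and the replicate block gave 765 higher and 1463 lower genes.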

Other observations

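Enzymes of fatty acid oxidation, a list written after the values of some of them were seen, that passed the test of edgeR were higher in PMs. Of 21 genes tested, 10 were called higher and none lower, against 3.79% and 7.44% of all genes tested, and 18 had a positive difference, against 8434 of all 16926, with a median response of 1.10 in PMs and 0.29 in C2C12 cells. The log2 test called 4 higher, and voom, total counts, the replicate block and the fits without a filter or to the 12 siControl libraries called 1 lower. Acadl, a long-chain acyl-CoA dehydrogenase, rose from 185 and 172 to 687 and 602 CPM in PMs and stood at 131 and 137 CPM at day 0 and 230.4 and 242 CPM at day 3 in C2C12 cells (difference 1.04, edgeR adjusted p = 0.0193). Crat, the carnitine acetyltransferase, went from 56.1 and 42.8 to 454 and 298 CPM in PMs and from 41.3 and 44.6 to 94.5 and 90.9 CPM in C2C12 cells (difference 1.82). In the siTead1/4 libraries, which are separate, 10 of the 21 were called higher and none lower (median 0.75), against 5.72% and 8.45% of all genes tested.

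The gap between the cell types was also read at day 6, in libraries that the comparison does not use. Of 77 sarcomere genes, 11 lay within 2-fold between PMs and C2C12 cells at day 0, 24 at day 3 and 30 at day 6, and of 16926 tested genes 12261, 11714 and 12292. Of 73 mitosis genes, 72 lay within 2-fold at day 0 and 69 at day 3, but 17 at day 6, when the median gap was log2 -1.39, lower in PMs. Of 63 respiratory chain genes the numbers were 57, 23 and 55. Unfolded protein genes, of which 2 of 44 were lower in siControl cells, had 21 lower in siTead1/4 cells with a median of -1.90, where 7.44% and 8.45% of all genes tested were lower. Whether this list differs between the siRNAs was not tested, and the direct test of that difference passed for 13 of all genes with edgeR. The siTead1/4 C2C12 replicates stood farthest apart, as given above.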
